A study of Drosophila melanogaster with 24 samples.

Results

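The Hox genes of Drosophila melanogaster are the homeotic selector genes lab, pb, Dfd, Scr and Antp of the Antennapedia complex and Ubx, abd-A and Abd-B of the bithorax complex, all 8 on chromosome arm 3R. Members were every array probe that the platform's probe-to-gene table assigns to one of these genes. There were 12 such probes out of 45220, for 4 of the 8 genes: 2 for pb, 1 for Dfd, 2 for Scr and 7 for Antp. The genes lab, Ubx, abd-A and Abd-B were not analysed here, since none of the probes used was named for them.

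Hox genes encode transcription factors with a homeodomain, which are expressed in ordered domains along the body axis and give the segments of an embryo their identity. Gap and pair-rule genes set up the domains early, and the Polycomb and trithorax groups of chromatin proteins then keep them silent or active through later development. Along the axis, lab and pb act in the head and the mouthparts, Dfd in the mandibular and maxillary segments and in neurons that move the mouthparts, and Scr in the labial segment, the prothorax and the salivary glands. Antp acts in the thorax, and Ubx, abd-A and Abd-B act from the posterior thorax to the end of the abdomen. In late embryos and young larvae these genes remain active in segmental stretches of the nerve cord, the epidermis, the muscles and the gut.

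Gene expression was measured on RNA of whole animals with Agilent arrays. Manf is the fly homologue of MANF, a secreted protein of the endoplasmic reticulum. The groups were maternal and zygotic MANF mutant D96 embryos (mz mutant embryos), maternal mutant D96 embryos with paternal rescue (rescued embryos), wild type embryos (Wmix), zygotic MANF mutant D96 larvae (mutant larvae), larvae with ectopic MANF overexpression under the 69B-GAL4 driver (overexpressing larvae) and wild type larvae (Wmix). Mz mutant embryos were 21 to 24 h old after egg laying, while the other embryos were chosen in late stage 17 by the filling of their tracheas with air. Mutant larvae were collected between 29 and 50 h, overexpressing larvae between 29 and 44 h and wild type larvae between 29 and 45 h. Each group had 4 samples, except that overexpressing larvae 69 and 70 were left out, so that 2 samples stood for that group and 22 for all. The study describes its sets of samples as biologically independent, but the labels do not say which samples of a group make up those sets, so that each p value rests on sample-to-sample spread, part of which may be technical.

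The values are log2 normalised intensities with a median of 9.15 in each of the 22 samples. The 2 larvae left out correlated with the other 22 samples at 0.37 to 0.442 over all probes, against 0.886 to 0.994 among the 22. Samples are called by their group and by the number in their label, and these numbers fall into a low series from 1 to 4 and a high series from 63 to 88. Dye and genotype cannot be told apart in comparisons with wild type larvae, which were all in Cy3, a dye that no mutant or overexpressing larva carried. In embryos they are confounded in part, since 3 of the 4 wild type embryos carried Cy3 and 0 mz mutant embryos did. Manf at its brightest probe was 11.29, 10.12, 9.48 and 9.14 in mz mutant embryos, 10.52, 10.63, 10.91 and 10.83 in rescued embryos, and 11.10, 11.28, 11.48 and 11.25 in wild type embryos. It was 10.67, 10.46, 12.48 and 13.50 in mutant larvae, 14.23 and 14.40 in overexpressing larvae, and 11.65, 11.59, 13.18 and 13.64 in wild type larvae. The sample labelled mz mutant embryo 1 and the samples labelled mutant larvae 65 and 66 lay within the wild type range of their stage at this probe. At the other Manf probe, 43955, mz mutant embryo 1 was just below the wild type embryos, with 10.59 against 10.67 to 11.23, and the other mz mutant embryos read 8.95 to 9.40. Mutant larvae 65 and 66 read 11.82 and 13.06 there, within the 11.23 to 13.09 of wild type larvae of both series, and mutant larva 65 was the lowest larva of the high series. Where these probes lie relative to the deletion is not given in the sources used here, so that they test the labels only in part. The fit was also run without these 3 samples, an alternative chosen after the values were seen, which leaves the mutant larvae of the low series alone.

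Dfd was lower in mz mutant embryos than in wild type embryos, by 0.76 on the log2 scale, and of the 4 Hox genes measured it alone passed the test in this comparison. Its probe, 1572, read 9.80, 9.08, 9.39 and 9.23 in mz mutant embryos 1, 4, 87 and 88. It read 10.37, 10.21, 10.01 and 9.96 in wild type embryos 1, 2, 82 and 83. Every mz mutant embryo was below every wild type embryo, and the mutant sample closest to wild type was embryo 1, which also had the highest Manf of its group at both Manf probes. The log2 fold change was -0.76 (SE 0.17, 95% interval -1.12 to -0.40), or 0.589-fold, with an adjusted p of 0.00799 by limma at a threshold of 0.01. One of 4 genes was thus called lower and 0 higher, where 2.3% of all 12799 genes were called lower and 5.66% were called in either direction. Without mz mutant embryo 1 the log2 fold change was -0.91 (adjusted p = 0.00113).

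The call of Dfd was close to the threshold and rests on the gene's only probe, so that no second probe could be compared. It passed in 8 of the 22 fits that each left out 1 sample, with log2 fold changes from -0.91 to -0.66 and adjusted p values from 0.00113 to 0.0401, the highest without mz mutant embryo 4. The 14 samples without which it did not pass were the 4 wild type embryos, mz mutant embryos 4, 87 and 88, rescued embryos 1, 2 and 84, mutant larvae 2 and 65 and overexpressing larvae 2 and 3. Neither series alone passed, with -0.67 within the high series (adjusted p = 0.0193) and -0.85 within the low series (adjusted p = 0.0599). With dye as a covariate the difference was -0.90 (adjusted p = 0.0544), and with all 24 samples in the fit -0.76 (adjusted p = 0.322). Without the 3 mutant samples named above it was -0.91 (adjusted p = 0.00192). Because the samples were whole animals, fewer cells that express Dfd and less Dfd RNA per cell cannot be told apart.

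In Dfd rescued embryos overlapped with wild type embryos, and mz mutant embryos were below them as well. The probe read 10.07, 9.99, 9.95 and 10.13 in rescued embryos 1, 2, 66 and 84. These 4 values lay within 0.18 of each other, inside or just below the range of wild type embryos and above all mz mutant embryos. Mz mutant embryos differed from rescued embryos by -0.66 (SE 0.17, 95% interval -1.02 to -0.30), which did not pass the threshold of 0.01 (limma, adjusted p = 0.0264). Without mz mutant embryo 1 the difference was -0.80 and passed (adjusted p = 0.00386). It did not pass in the other 21 of the 22 fits that each left out 1 sample, with adjusted p values up to 0.112. In this comparison 3.45% of genes were called, and 0 Hox genes were, with 1 of 4 at an unadjusted p under 0.05. Rescued embryos differed from wild type embryos by -0.10 (SE 0.17, adjusted p = 0.9999), with a 95% interval of -0.46 to 0.26. The embryos could be compared within a dye only in part, since 1 wild type embryo carried Cy5 and 0 carried Alexa488. In Cy5 mz mutant embryos read 9.39 and 9.23, against 10.07 in the rescued embryo and 10.37 in the wild type embryo of that dye, and in Alexa488 mz mutant embryos read 9.80 and 9.08, against 9.95 and 10.13 in rescued embryos. Within each dye the mz mutant embryos were of one number series and the embryos set against them of the other. Genotype and number series thus cannot be told apart in these within-dye comparisons.

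**Figure D1:**
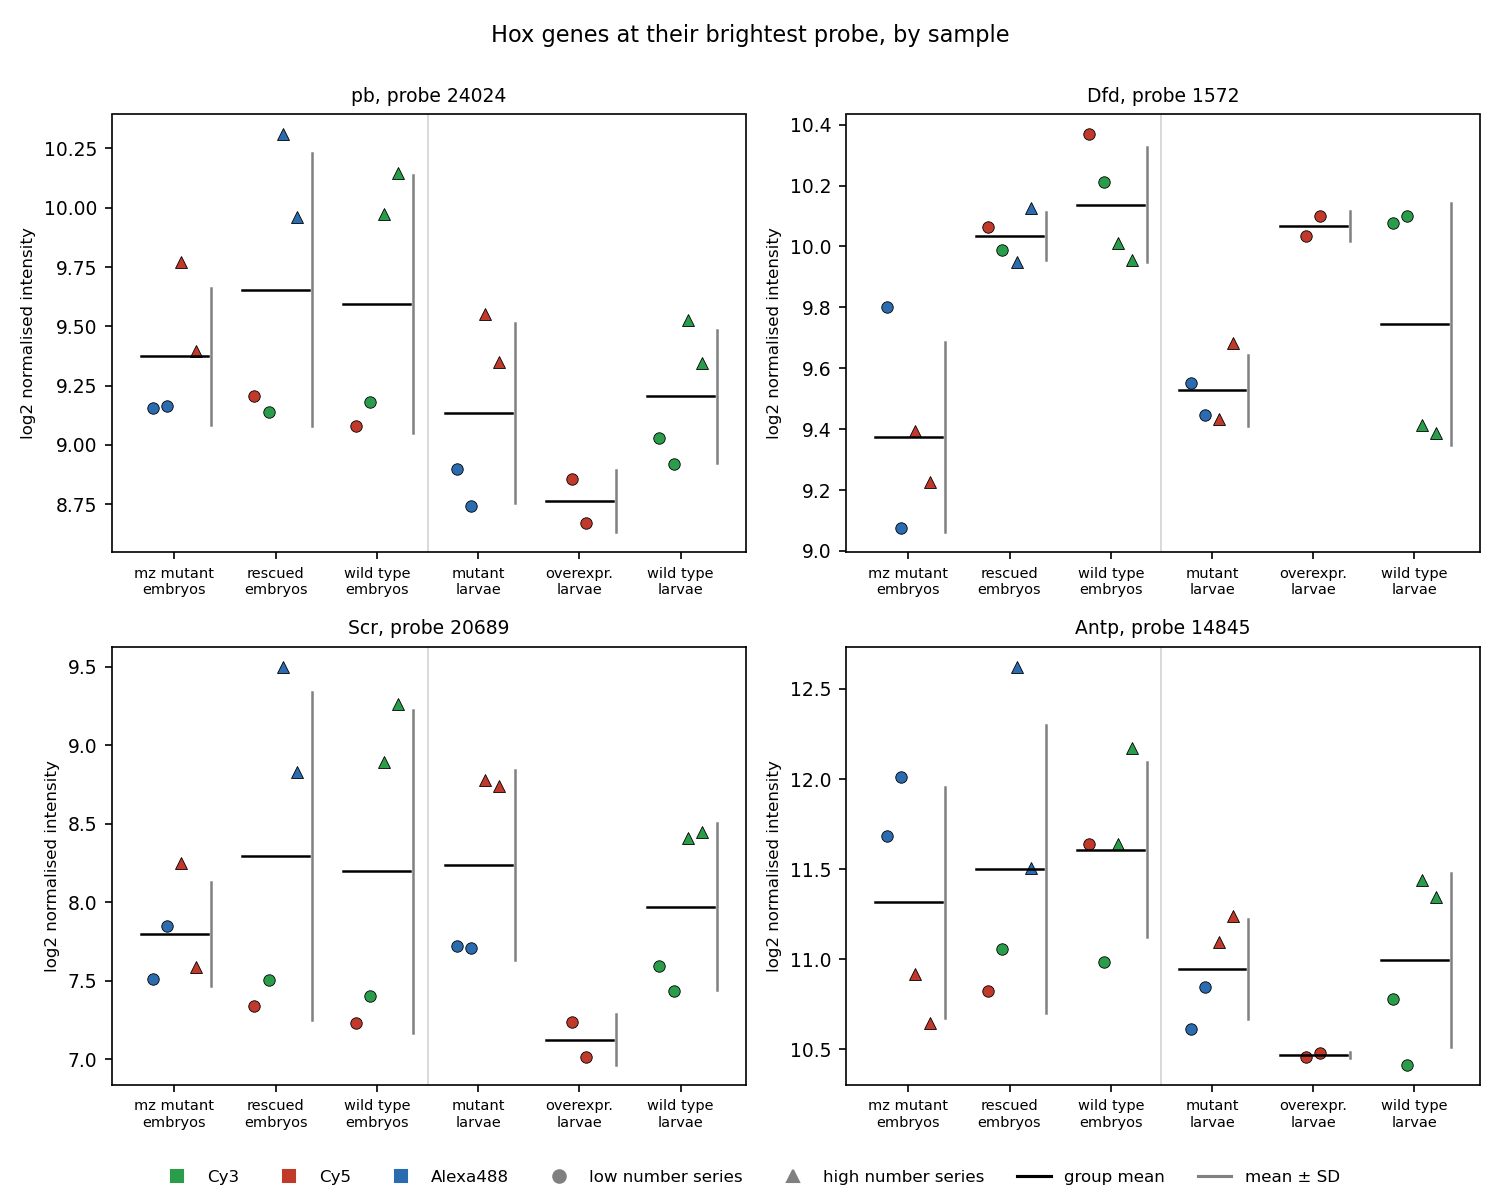
Log2 normalised intensity of pb, Dfd, Scr and Antp at the brightest probe of each gene in the 22 samples, by group on the horizontal axis. Points are samples, coloured by dye and shaped by number series, with black bars for group means and grey bars for the mean ± SD (2 samples in overexpressing larvae). All 4 mz mutant embryos lie below all other embryos for Dfd, and for pb and Scr the high series samples of most groups lie above the low series samples.

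In larvae Dfd gave no call, and the 2 number series differed. The probe read 9.55, 9.45, 9.43 and 9.68 in mutant larvae 2, 4, 65 and 66, 10.03 and 10.10 in overexpressing larvae 2 and 3, and 10.08, 10.10, 9.41 and 9.39 in wild type larvae 1, 2, 63 and 65. Wild type larvae of the high series were thus as low as mutant larvae, while those of the low series were at the level of overexpressing larvae. Mutant larvae differed from wild type larvae by -0.22 (SE 0.17, limma adjusted p = 0.713), with -0.59 within the low series and 0.16 within the high series. Without mutant larvae 65 and 66 and mz mutant embryo 1 it was -0.25. Mutant larvae were below both overexpressing larvae without overlap, with a log2 fold change of -0.54 (SE 0.21, adjusted p = 0.139). Overexpressing larvae differed from wild type larvae by 0.32 (SE 0.21, adjusted p = 0.546) and by -0.02 within the low series, the only one both groups share. The effect of the mutation in larvae minus that in embryos was 0.55 (SE 0.24, adjusted p = 0.436), which was not called. The mz mutant embryos lacked maternal and zygotic Manf, the mutant larvae zygotic Manf only. Stage and maternal loss thus cannot be told apart in this contrast.

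Ordered by mean, Dfd was 10.14 ± 0.19 in wild type embryos, 10.07 ± 0.05 in overexpressing larvae, 10.03 ± 0.08 in rescued embryos, 9.74 ± 0.40 in wild type larvae, 9.53 ± 0.12 in mutant larvae and 9.37 ± 0.31 in mz mutant embryos (SD, n = 4, but n = 2 in overexpressing larvae). Each neighbour in this order overlapped with the next. Among the 6 groups the spread was widest in wild type larvae, through the gap between their series.

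Antp, the selector gene of the thorax, has the most probes, and they did not move together. The 7 probes belong to 3 transcript records: 14845, 25758 and 19585 to one, 13556 and 6211 to another, and 28528 and 33182 to the last. At the brightest, 14845, Antp read 11.69, 12.01, 10.92 and 10.65 in mz mutant embryos, 10.82, 11.05, 12.62 and 11.51 in rescued embryos, and 11.64, 10.98, 11.64 and 12.17 in wild type embryos. The 3 groups overlapped, and the ranges within a group reached from 1.19 to 1.80. In larvae it read 10.61, 10.85, 11.09 and 11.24 in mutants, 10.46 and 10.48 with overexpression, and 10.78, 10.41, 11.44 and 11.35 in wild type. At this probe 0 comparisons were called, with log2 fold changes of -0.29 (SE 0.36, limma adjusted p = 0.809) for mz mutant against wild type embryos, -0.11 (SE 0.36) for rescued against wild type embryos and -0.05 (SE 0.36, adjusted p = 0.986) for mutant against wild type larvae.

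Probe 19585 of Antp kept wild type embryos and larvae apart from mutants and, in embryos, from rescued animals, but none of these differences passed the test. It read 8.85, 8.49, 9.32 and 9.29 in mz mutant embryos 1, 4, 87 and 88, 8.96, 8.82, 9.13 and 9.21 in rescued embryos 1, 2, 66 and 84, and 9.38, 9.50, 9.66 and 9.41 in wild type embryos 1, 2, 82 and 83. Every wild type embryo was above every mutant and rescued embryo, by a small margin for mz mutant embryos 87 and 88. Mz mutant embryos differed from wild type by -0.50 (SE 0.15, limma adjusted p = 0.04) and rescued embryos by -0.46 (SE 0.15, adjusted p = 0.419), so that neither passed 0.01. Mz mutant minus wild type embryos was -0.77 within the low series and -0.23 within the high series. Of the 12 Hox probes, 2 did not overlap between mz mutant and wild type embryos, Dfd and this one, which is 2 of 12 where 11% of all probes did not overlap. Between rescued and wild type embryos it was this probe alone, where 3.08% of all probes did not overlap and 0.164% of genes were called.

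In larvae the same probe read 8.41, 8.51, 8.30 and 8.39 in mutants, 8.70 and 8.79 with overexpression, and 8.75, 8.92, 8.90 and 8.85 in wild type. All 4 mutant larvae were below all other larvae, while overexpressing and wild type larvae overlapped. The difference between mutant and wild type larvae was -0.45 (SE 0.15, 95% interval -0.76 to -0.14, limma adjusted p = 0.111), with -0.37 within the low series and -0.53 within the high series. Over the 22 fits that each left out 1 sample it ranged from -0.49 to -0.42 in larvae, and mz mutant against wild type embryos ranged from -0.61 to -0.34. The effect of the mutation in larvae minus that in embryos was 0.05 (SE 0.21, 95% interval -0.39 to 0.49), where stage and maternal loss again cannot be told apart.

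The pair of Antp probes of another transcript record, 13556 and 6211, ran the opposite way in larvae. Probe 13556 read 8.45, 8.86, 10.17 and 10.18 in mutant larvae 2, 4, 65 and 66, 7.27 and 7.87 in overexpressing larvae 2 and 3, and 7.58, 7.52, 8.27 and 8.08 in wild type larvae 1, 2, 63 and 65. Probe 6211 read 8.38, 8.38, 9.74 and 9.70 in mutant larvae, 7.47 and 7.06 in overexpressing larvae, and 7.52, 7.37, 7.93 and 7.88 in wild type larvae. At both probes every mutant larva was above every other larva, and the mutant larvae of the high series were the highest. Mutant against wild type larvae gave 1.55 (SE 0.54, 95% interval 0.41 to 2.69, limma adjusted p = 0.147) at probe 13556 and 1.37 (SE 0.51, 0.31 to 2.44, adjusted p = 0.181) at probe 6211. These are large differences with a wide error, and neither passed the test.

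Within the low series the differences at 13556 and 6211 between mutant and wild type larvae were 1.10 and 0.94, and within the high series 2.0 and 1.81. Leaving out mutant larva 66, whose Manf lay within the wild type range, gave 1.30 and 1.16, and leaving out mutant larva 65 gave 1.30 and 1.14, with adjusted p values of 0.356 to 0.42. Without both of them and mz mutant embryo 1 the differences were 0.79 (adjusted p = 0.69) and 0.71 (adjusted p = 0.723). Between mutant and wild type larvae 3 of 12 Hox probes did not overlap, 2 above and 1 below, where 12.9% of all probes did not. By gene, 0 of 4 were called at the brightest probe, with 0 at an unadjusted p under 0.05, where 2.3% of genes were called.

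In embryos probes 13556 and 6211 varied within each genotype. Probe 13556 read 8.27, 9.81, 8.83 and 7.88 in mz mutant embryos 1, 4, 87 and 88, 7.09, 8.33, 9.71 and 8.96 in rescued embryos 1, 2, 66 and 84, and 7.20, 7.42, 8.31 and 9.04 in wild type embryos 1, 2, 82 and 83. The groups overlapped, and mutant embryo 4 and rescued embryo 66 were the highest. Mz mutant minus wild type embryos was 1.73 within the low series and -0.32 within the high series, so that the series had opposite signs.

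The last pair of Antp probes, 28528 and 33182, stayed within narrow and low ranges, 6.80 to 7.41 and 6.48 to 7.24 over the 22 samples. Their log2 fold changes lay between -0.19 and 0.16 in the comparisons of genotypes and of stages, with an SE of 0.11 to 0.17. Background signals were not used here, so that it is not known whether these 2 probes were above background.

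**Figure D2:**
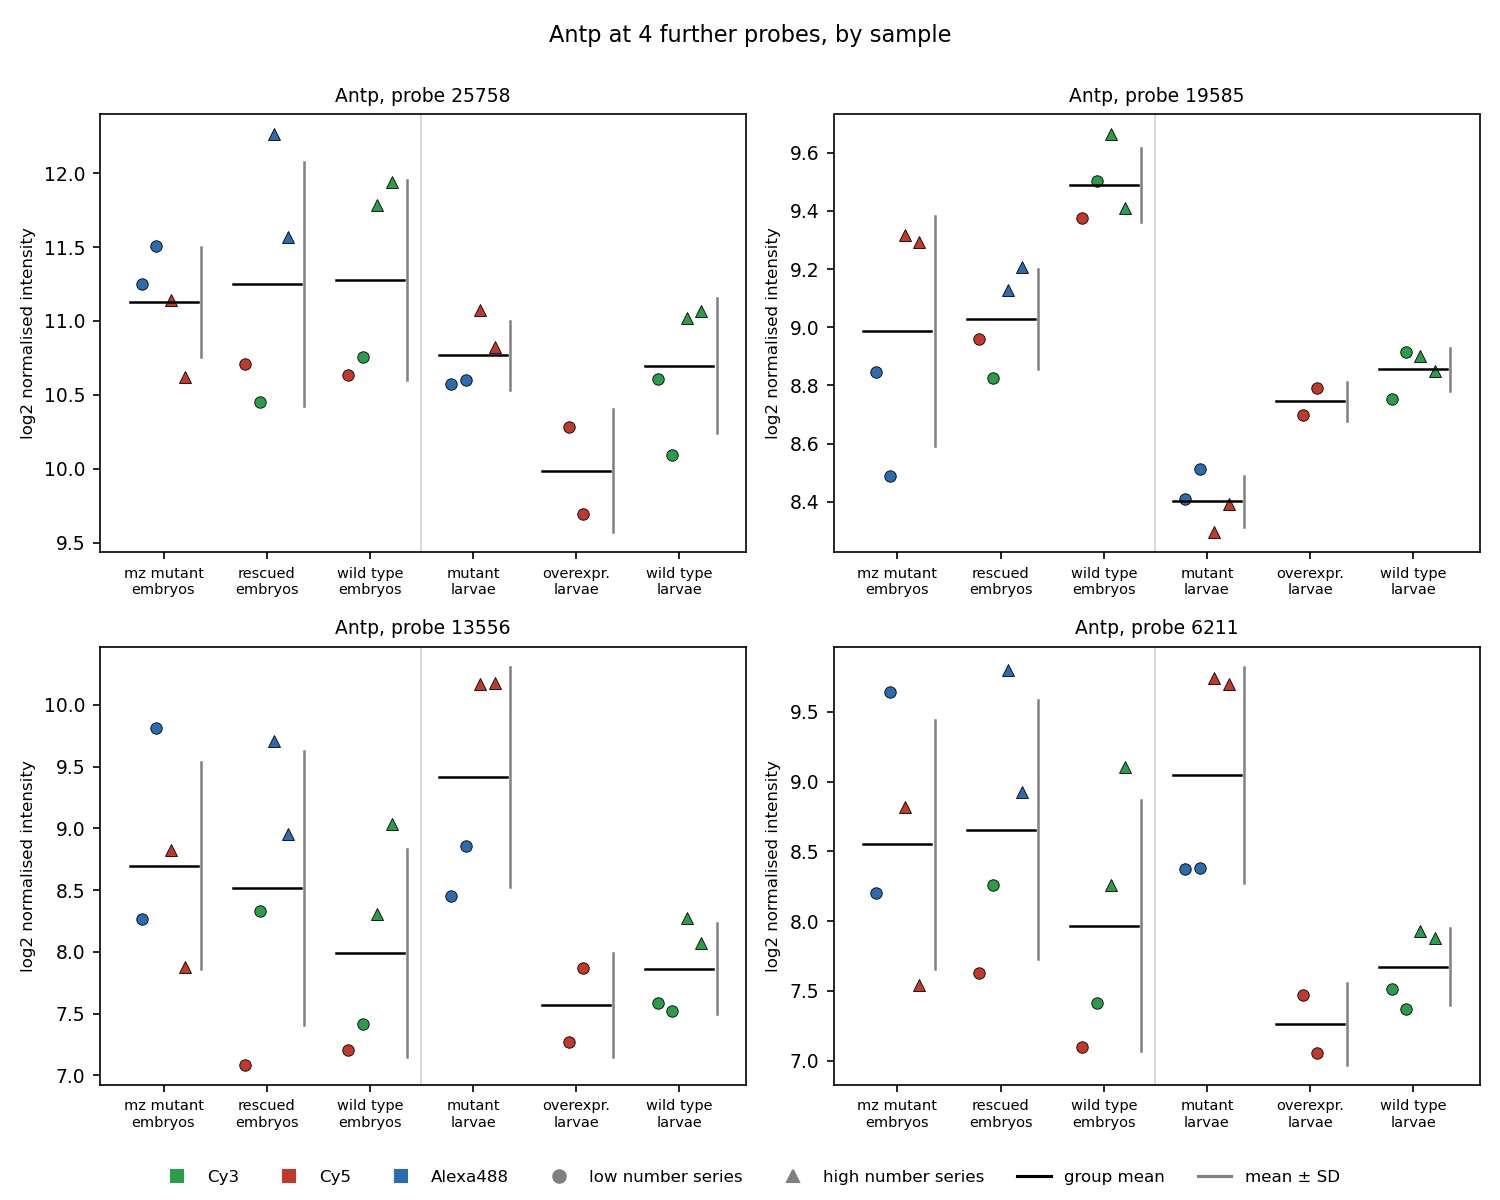
Log2 normalised intensity of 4 further Antp probes in the 22 samples, by group on the horizontal axis. Points are samples, coloured by dye and shaped by number series, with black bars for group means and grey bars for the mean ± SD (2 samples in overexpressing larvae). Mutant larvae lie below all other larvae at probe 19585 and above all other larvae at probes 13556 and 6211, and at probe 25758 they overlap with wild type larvae.

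Probe 25758, of the same transcript record as 14845 and 19585, followed 14845 and not 19585. It ranged from 10.62 to 11.51 in mz mutant embryos, from 10.45 to 12.26 in rescued embryos and from 10.64 to 11.94 in wild type embryos, and from 10.57 to 11.07 in mutant larvae, 9.69 to 10.28 in overexpressing larvae and 10.09 to 11.07 in wild type larvae. After subtraction of stage means, it correlated with 14845 at r = 0.839 over the 22 samples and with 19585 at -0.02. Probes 13556 and 6211 correlated at 0.968, and each correlated with 19585 at -0.50 and -0.53. These samples share their normalisation, their dyes and their number series, and the correlations are given as a description.

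Scr, which directs the salivary glands and the prothorax, varied with the number series. At its brightest probe, 20689, it read 7.51, 7.85, 8.25 and 7.59 in mz mutant embryos 1, 4, 87 and 88, 7.34, 7.50, 9.50 and 8.83 in rescued embryos 1, 2, 66 and 84, and 7.23, 7.40, 8.89 and 9.26 in wild type embryos 1, 2, 82 and 83. The rescued and wild type embryos of the high series were more than 1 log2 unit above those of the low series, and mz mutant embryos showed a smaller gap. Mz mutant embryos differed from wild type embryos by -0.40 (SE 0.49, 95% interval -1.42 to 0.62, limma adjusted p = 0.803), which was -1.16 within the high series and 0.36 within the low series. Mz mutant against rescued embryos was -0.49 (SE 0.49) and rescued against wild type embryos 0.09 (SE 0.49). Without mz mutant embryo 1 and mutant larvae 65 and 66, mz mutant embryos differed from wild type embryos by -0.30.

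In larvae Scr read 7.72, 7.71, 8.78 and 8.74 in mutants, 7.24 and 7.01 with overexpression, and 7.59, 7.43, 8.41 and 8.44 in wild type. Overexpressing larvae, both of the low series, were the lowest, and mutant and wild type larvae overlapped. The log2 fold changes were 0.27 (SE 0.49, limma adjusted p = 0.922) for mutant against wild type larvae, -0.85 (SE 0.60, adjusted p = 0.579) for overexpressing against wild type larvae and 1.11 (SE 0.60, adjusted p = 0.297) for mutant against overexpressing larvae. Without mutant larvae 65 and 66 and mz mutant embryo 1 the difference between mutant and wild type larvae turned to -0.26, and that between mutant and overexpressing larvae was 0.59. Within the low series overexpressing larvae differed from wild type larvae by -0.39. The dimmer Scr probe, 31704, read 7.08 and 7.30 in overexpressing larvae, against 7.53, 7.44, 7.90 and 7.98 in wild type larvae, again without overlap. Its log2 fold change of -0.53 (SE 0.23) was not called (adjusted p = 0.339).

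The pb gene, which acts in the mouthparts, has 2 probes of 1 transcript record that moved differently. At the brightest, 24024, it read 9.16, 9.17, 9.77 and 9.40 in mz mutant embryos, 9.20, 9.14, 10.31 and 9.96 in rescued embryos, and 9.08, 9.18, 9.97 and 10.15 in wild type embryos. In larvae it read 8.90, 8.74, 9.55 and 9.35 in mutants, 8.85 and 8.67 with overexpression, and 9.03, 8.92, 9.53 and 9.34 in wild type. Samples of the low series were nearly alike across embryo groups and those of the high series were above them. The log2 fold changes were -0.22 (SE 0.28, limma adjusted p = 0.815) for mz mutant against wild type embryos, -0.07 (SE 0.28, adjusted p = 0.968) for mutant against wild type larvae and -0.44 (SE 0.35, adjusted p = 0.625) for overexpressing against wild type larvae. Without mz mutant embryo 1 and mutant larvae 65 and 66 the differences of mutants from wild type were -0.15 in embryos and -0.38 in larvae.

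The other pb probe, 6845, read 9.06 and 9.02 in overexpressing larvae, against 8.80, 8.92, 8.57 and 8.46 in wild type larvae and 8.58, 8.44, 8.80 and 8.61 in mutant larvae. Overexpressing larvae were thus the highest at this probe and the lowest, with an overlap with mutant larvae, at probe 24024. Neither difference from wild type larvae was called, with 0.35 (SE 0.24, limma adjusted p = 0.558) at probe 6845. The 2 pb probes correlated at -0.32 over the 22 samples after subtraction of stage means.

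Between overexpressing and wild type larvae 4 of 12 Hox probes did not overlap, 3 below and 1 above, where 34.6% of all probes did not overlap with 2 samples against 4. None of the 4 genes was called in limma, with 0 at an unadjusted p under 0.05, where 0.711% of genes were called. Between mutant and overexpressing larvae 9 of 12 probes did not overlap, where 35.6% of all probes did not. Here 0 genes were called, with 1 of 4 at an unadjusted p under 0.05, and 3.31% of all genes were called. The largest differences were again at Antp probes 13556, with 1.85 (SE 0.67, limma adjusted p = 0.107), and 6211, with 1.79 (SE 0.62, adjusted p = 0.0942). The overexpressing larvae are of the low series only, and within that series these differences were 1.09 and 1.12. With overexpressing larvae 69 and 70 in the fit they were 1.22 (adjusted p = 0.143) and 0.31 (adjusted p = 0.754).

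**Figure D3:**
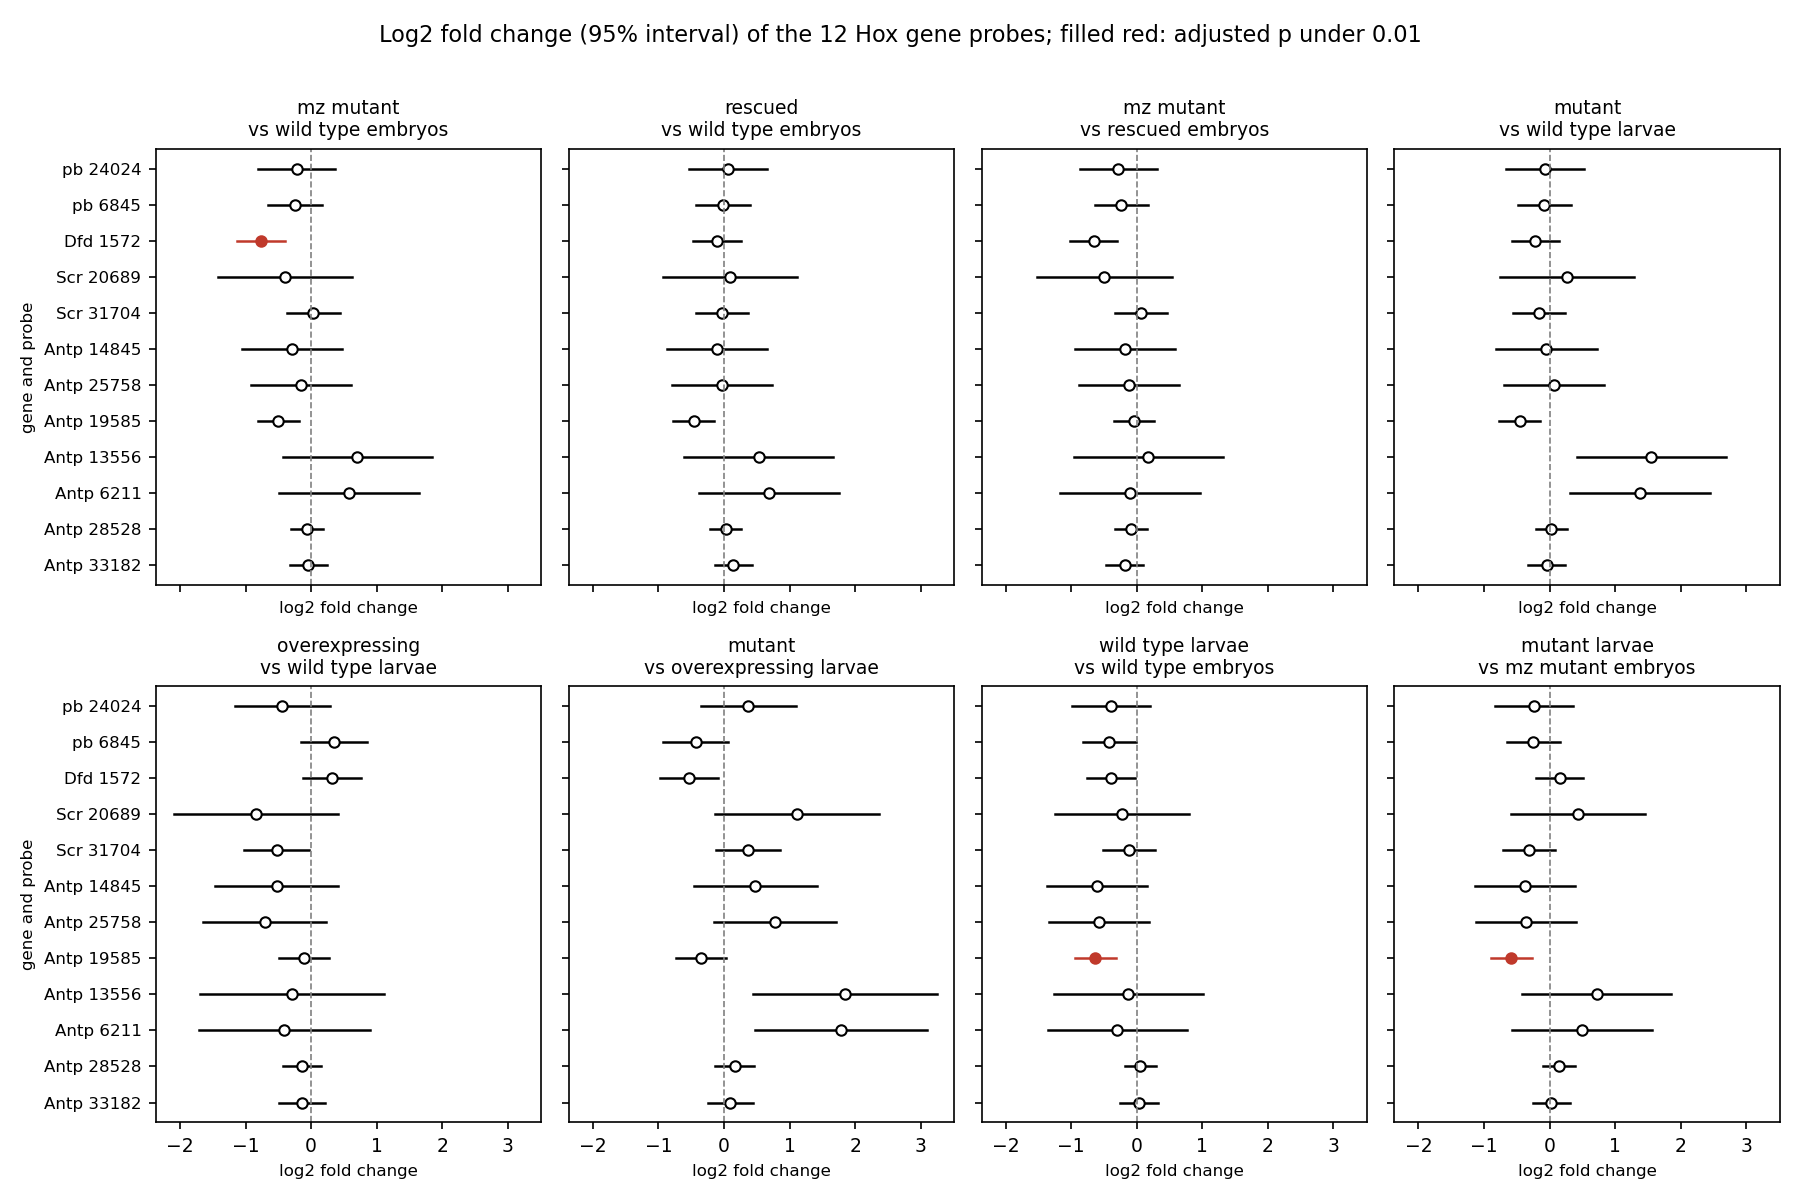
Log2 fold change of each of the 12 Hox gene probes in 8 comparisons, with the 95% interval of limma's moderated fit over 22 samples. Filled red points have an adjusted p under 0.01. Dfd is called in mz mutant against wild type embryos, and Antp probe 19585 in both comparisons of larvae with embryos.

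Between the stages 0 of the 4 Hox genes passed the test at their brightest probes. Wild type larvae differed from wild type embryos by -0.39 (SE 0.28) for pb, -0.39 (SE 0.17) for Dfd, -0.23 (SE 0.49) for Scr and -0.61 (SE 0.36) for Antp, with limma adjusted p values of 0.117 to 0.812. One of the 4 had an unadjusted p under 0.05, and 22.9% of all genes were called. Of the 12 probes, 10 were lower in larvae, and the median over the 4 genes was -0.39, against 0.00 over all genes. Antp probe 19585 fell by 0.63 (SE 0.15, 95% interval -0.94 to -0.32, adjusted p = 0.00342), where 16.1% of all probes were called. It was below every wild type embryo in every wild type larva, with differences of -0.61 within the low series and -0.66 within the high series. It was the only one of 12 probes without overlap, where 28.5% of all probes did not overlap.

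Mutant larvae and mz mutant embryos were matched in dyes and series but not in the loss of maternal Manf. The larvae differed from the embryos by -0.24 for pb, 0.15 for Dfd, 0.44 for Scr and -0.37 for Antp at the brightest probes. None was called by limma, with 0 at an unadjusted p under 0.05, where 22.3% of genes were called. Antp probe 19585 fell here too, by 0.58 (SE 0.15, adjusted p = 0.00633), where 16.3% of all probes were called, though mz mutant embryo 4 at 8.49 and mutant larva 4 at 8.51 overlapped. None of the 12 probes was without overlap, where 23.4% of all probes were. The difference was -0.96 within the high series and -0.21 within the low series. Without mz mutant embryo 87 or 88 or mutant larva 2, 65 or 66 its adjusted p was between 0.0142 and 0.0288, above the threshold of 0.01, and without mz mutant embryo 1 and mutant larvae 65 and 66 together it was 0.0625. For wild type the same happened without wild type embryo 2 or 82 or wild type larva 1, with adjusted p values of 0.0102 to 0.0144.

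The number series differed in pb, Scr and Antp at several probes. At pb probe 24024 embryos of the high series ranged from 9.40 to 10.31, against 9.08 to 9.20 in the low series, and larvae from 9.34 to 9.55, against 8.67 to 9.03. The series did not overlap in either stage, with mean differences of 0.77 and 0.59. At Scr probe 20689 the difference was 1.25 in embryos, with overlap, and 1.14 in larvae, without. At Antp probes 14845 and 25758 the larvae did not overlap, with differences of 0.68 and 0.69. Both overexpressing larvae are in the low series and none in the high series, so that all larval differences between the series given here mix in genotype. At Scr probe 20689 the low and high series averaged 7.51 and 8.43 in wild type larvae and 7.71 and 8.76 in mutant larvae. Over all 45220 probes, the high series lay above the low series without overlap at 2.4% in embryos and 10.1% in larvae. Dfd was lower in the high series by a mean of 0.14 in embryos and 0.41 in larvae, with overlap in both. The main model left the number series out. Fits with the series as a block and with each series alone are taken up at the end, and within-series values are given above. The part of the series in these differences between genotypes was not tested beyond these fits.

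**Figure D4:**
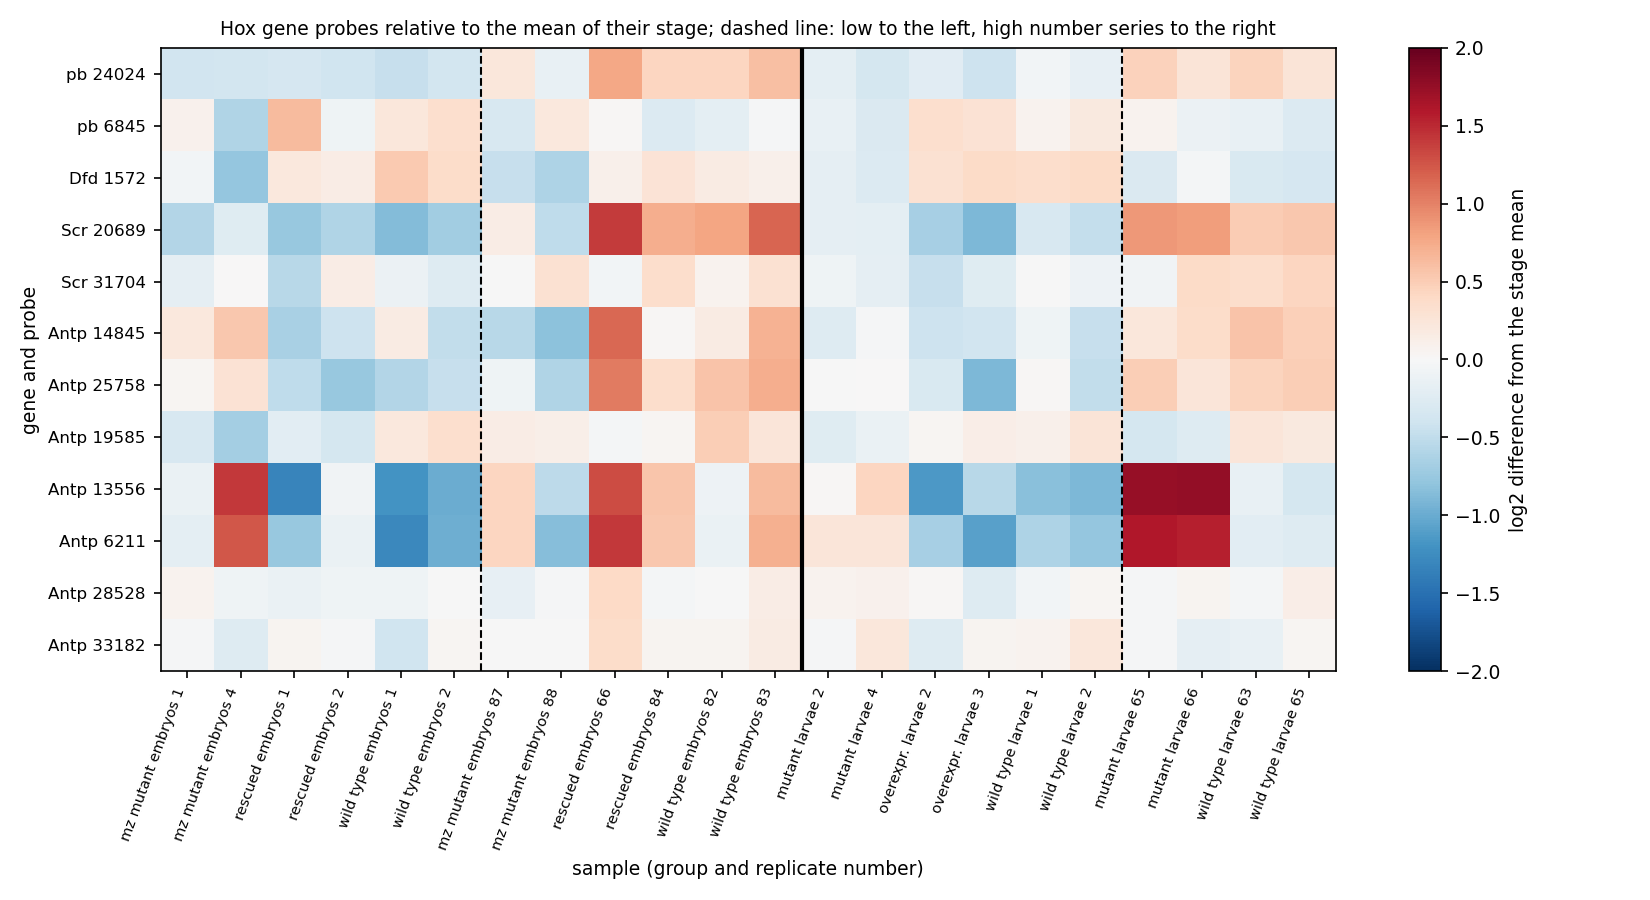
Log2 difference of each Hox gene probe (rows) from the mean of its stage in the 22 samples (columns), with embryos left of the solid line and larvae right of it. Within each stage the low number series stands left of the dashed line and the high series right of it. The brightest pb and Scr probes are higher in most high series samples, and Antp probes 13556 and 6211 are highest in mutant larvae 65 and 66.

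Some Hox probes shared their pattern across samples. After subtraction of stage means, pb probe 24024 and Scr probe 20689 correlated at r = 0.956 over the 22 samples, and Scr probe 20689 and Antp probe 25758 at 0.907. At the brightest probes Dfd lay apart, with r of -0.15 with pb, -0.23 with Scr and -0.15 with Antp. At the other probes its r ranged from -0.51 with Antp probe 13556 to 0.60 with pb probe 6845. Scr probe 20689 and pb probe 6845 correlated at -0.47. Series means were not subtracted, and pb probe 24024 and Scr probe 20689 differed between the number series. Over all genes, those with the profile most like Dfd were CG32971 (r = 0.885), Hesr (0.883), a gene of the Hes family of repressors, and CG14346 (0.874). Those most like pb were Cul5 (0.975), a cullin of ubiquitin ligases, CG1523 (0.955) and hoe1 (0.947). Those most like Scr were slou (0.975), a homeobox gene of muscle founder cells, GM130 (0.973), a protein of the Golgi, and CG8245 (0.97). Those most like Antp were CG32428 (0.902), Fili (0.875) and Pop4 (0.865), a subunit of RNase P.

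In Release 6 of the fly genome 20 protein-coding genes run from lab to Antp, and 17 of them had a named probe here. In mz mutant against wild type embryos, where 5.66% of all genes were called, Dfd was the only one of the 17 that limma called. Its neighbours on either side in that list, Ama, which codes for the secreted protein amalgam, and Scr, were not called. The complex also holds zen, zen2, bcd, ftz and a cluster of cuticle protein genes. These were listed with other genes of the Antennapedia and bithorax complexes, and 11 of the 13 genes of that list were measured. None of the 11 was called in any of the 8 comparisons, with at most 1 at an unadjusted p under 0.05 in any comparison. Over all genes 0.164% to 22.9% were called, depending on the comparison. Between wild type larvae and wild type embryos, where 22.9% of all genes were called, CG34297 fell by 1.06 (SE 0.16, adjusted p = 3.7e-05). It was the only gene called among the 17 and was dim, with a mean of 7.47 over the samples in the fit.

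Regulators and partners of the Hox genes were taken as lists. Of the Polycomb group, which keeps Hox genes silent, 16 of 21 genes were measured. In mz mutant against wild type embryos, where 3.36% of all genes were called higher and 2.3% lower, 1 of 16 rose and 0 fell: escl, which codes for a subunit of the complex that methylates histone H3, by 1.18 (SE 0.23, limma adjusted p = 0.00278). It was also higher in mz mutant than in rescued embryos, by 1.08 (SE 0.23, adjusted p = 0.0081). The medians of the list were 0.13 and -0.05, against -0.05 and -0.08 over all genes. In larvae 0 of 16 were called in mutants against wild type, with 2 at an unadjusted p under 0.05 and 2.3% called over all genes, and 0 with overexpression, with 5 and 0.711%. The gene esc, a close relative of escl, was lower in mutant than in overexpressing larvae, with a log2 fold change of -1.38 (SE 0.21, adjusted p = 0.000495). It was the only gene of the list called there, with 3 of 16 at an unadjusted p under 0.05 and 3.31% of all genes called. The overexpressing larvae were 2 samples, both of the low series.

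Of the trithorax group, which keeps Hox genes active, 12 of 14 genes were measured and 0 were called in any comparison of genotypes, with at most 2 at an unadjusted p under 0.05. Over all genes 0.164% to 5.66% were called in these comparisons. With stage both groups had members that rose. In wild type larvae against wild type embryos, brm, the ATPase of a chromatin remodelling complex, rose by 1.50 (SE 0.14), ash2, of a histone methyltransferase complex, by 1.26 (SE 0.13) and mor, a partner of brm, by 1.25 (SE 0.25). In the same comparison the Polycomb group genes Caf1-55, Pcl, esc and phol rose by 1.40, 1.39, 1.27 and 0.84, and 0 members of either list fell. The medians were 0.37 for the trithorax and 0.40 for the Polycomb group, against 0.00 over all genes, and 12.9% of all genes were called higher.

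Upstream of the Hox genes, all 6 gap genes listed were measured. Kr rose by 1.21 (SE 0.22, limma adjusted p = 0.00156) and gt by 0.74 (SE 0.17, adjusted p = 0.00803) in mz mutant against wild type embryos, where 3.36% of genes were called higher. Kr also rose in mutant against wild type larvae, by 1.61 (SE 0.22, adjusted p = 0.000164), where 1.36% of genes were called higher. Both are known as regulators of early segmentation, and Kr is active again in later tissues such as the nervous system. In mz mutant against rescued embryos, where 3.45% of all genes were called, 0 of 6 were called, with 1 at an unadjusted p under 0.05. Kr differed there by 0.75 (SE 0.22, limma adjusted p = 0.0469) and gt by -0.10 (SE 0.17). The rescued embryos were thus as high in gt as mz mutant embryos. They differed from wild type embryos by 0.83 in gt (SE 0.17, limma adjusted p = 0.0261), which was not called, and by 0.46 in Kr (SE 0.22).

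Among genes known as targets of Hox proteins 11 of 16 were measured. In mz mutant against wild type embryos, where 3.36% of all genes were called higher and 2.3% lower, 2 rose and 0 fell: crb, which sets the polarity of epithelia, by 1.84 (SE 0.28, limma adjusted p = 0.000394), and upd1, a ligand of the JAK/STAT pathway, by 1.83 (SE 0.25, adjusted p = 0.000109). Against rescued embryos they rose by 1.50 (SE 0.28) and 1.79 (SE 0.25). Both are known to act under Abd-B in the posterior spiracles, as are ems and cv-c of the same list, and Abd-B was not analysed here. Against wild type embryos ems differed by -0.34 (adjusted p = 0.279) and cv-c by 0.19 (adjusted p = 0.943), and against rescued embryos ems differed by -0.57 (adjusted p = 0.0535). In mz mutant against wild type embryos 5 of the 11 had an unadjusted p under 0.05. Besides crb and upd1 these were betaTub60D, with 0.92, and eyg and Dll, with -0.72 and -0.52, none of which was called. The median of the list was -0.15, against -0.05 over all genes. In mutant against wild type larvae 0 of 11 were called, with 0 at an unadjusted p under 0.05 and 2.3% called over all genes. For upd1 the difference of mutants from wild type was not the same in larvae and embryos, with -2.12 for larvae minus embryos (SE 0.35, limma adjusted p = 0.00278). Stage and the loss of maternal Manf, which only the mz mutant embryos had, cannot be told apart in this contrast. Of the partners of Hox proteins in head and trunk 4 of 6 were measured. The gene tsh, a zinc finger partner in the trunk, fell in wild type larvae against wild type embryos by 0.83 (SE 0.14). It also fell in mutant larvae against mz mutant embryos, by 0.76 (SE 0.14). In these comparisons 22.9% and 22.3% of all genes were called. Between genotypes, where 0.164% to 5.66% of all genes were called, 0 of 4 were called, with 0 to 2 at an unadjusted p under 0.05.

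The samples held markers of the tissues in which Hox genes act. Over all genes 0.164% to 22.9% were called, depending on the comparison. The mean log2 level of 8 neuronal genes ranged from 11.78 to 11.95 in mz mutant embryos, 11.48 to 12.13 in rescued embryos and 11.90 to 12.18 in wild type embryos, and 0 of the 8 were called in any comparison, with at most 1 at an unadjusted p under 0.05. That of 6 glial genes ranged from 11.99 to 12.44 in mz mutant embryos, 11.68 to 12.20 in rescued embryos and 11.68 to 12.05 in wild type embryos. In mz mutant against wild type embryos, where 5.66% of all genes were called, 1 of the 6 was called, with 3 at an unadjusted p under 0.05. This was loco, a regulator of G protein signalling in glia, which was higher by 0.99 (SE 0.19, adjusted p = 0.00219). The glial selector repo differed by -0.29 (adjusted p = 0.274) from wild type and by -0.59 (adjusted p = 0.0195) from rescued embryos, and gcm by -0.47 (adjusted p = 0.349) from wild type. Of 3 muscle genes 0 were called in any comparison, with 0 at an unadjusted p under 0.05, and the list ranged from 13.60 to 14.64 in mz mutant embryos and 12.99 to 14.79 in wild type embryos. The part of these tissues in the Dfd difference was not tested. In larvae 5 midgut genes averaged 14.29 to 14.82 in mutants, 14.28 to 14.42 with overexpression and 13.60 to 13.98 in wild type, and Mal-A1, a maltase, rose by 1.37 (SE 0.19, adjusted p = 0.00022) in mutant against wild type larvae. It was the only 1 of the 5 called there, where 2.3% of all genes were called.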

How the data were processed

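The authors labelled amplified RNA of whole animals with Cy3, Cy5 or Alexa488 and scanned Agilent arrays. Median spot intensities were read in GenePix Pro, and limma was used by the authors for preprocessing. Versions, background correction and the kind of normalisation are not given in the sources used here. The deposited values are normalised log2 intensities of 45220 probes with 0 missing, and 0 columns of samples were left unused. Background signals were not used here, so that the number of arrays limits the precision.

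Probes were named from the platform's table with symbols updated by gene identifier: of the probes, 29872 had 1 gene name (12799 genes) and 15348 had no name. Samples were grouped by their titles. One model of 6 group means was fitted over 22 samples with limma 3.58.1 in R 4.3.3 (16 residual degrees of freedom), and the Benjamini-Hochberg adjustment took in all probes, with calls made under 0.01. A gene was called at its probe of highest mean. Overexpressing larvae 69 and 70 were left out of the fit, which ran also with all 24 samples. The 24-sample fit and the other alternatives (normalisation, dim probes, dye, number series, sample number as a block, stages apart, array weights, mean of probes, threshold, each sample left out) are given at the end.

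Named were all 8 Hox genes at every probe, the 3 genes most like each measured member by Pearson correlation over 22 samples after subtraction of stage means, called members of the gene lists (at most 4 a comparison), single genes of the complex that were called, and Manf. The members and lists were chosen with earlier results of these data known. The labels give 4 samples a group where the study's text gives 3 sets.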

Additional observations from a re-analysis of the deposited data

Results flagged for a closer look

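Of 60 sets of 4 samples of 1 group and 1 Hox probe, 2 held a sample set apart from the other 3, where chance gives about 1 in 20. Rescued embryo 66 was the highest of its group at Antp probe 28528, at 7.41, and mz mutant embryo 4 was the lowest of its group at Antp probe 33182, at 6.63. Both probes are dim.

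The overexpressing larvae left out of the fit, 69 and 70, lay outside the range of wild type larvae at most Hox probes, as they did over the whole array. Larva 69 was above at 6 of 12 probes and below at 4, where 41.8% and 45.4% of all probes were, and larva 70 was above at 5 and below at 5, where 41.5% and 45.7% of all probes were. At pb probe 6845 larva 69 read 12.51, against 8.46 to 8.92 in wild type larvae, and at Scr probes 20689 and 31704 it read 9.68 and 8.55, against 7.43 to 8.44 and 7.44 to 7.98. At Antp larvae 69 and 70 read 9.62 and 10.82 at probe 6211, 12.21 and 11.91 at probe 14845, and 8.75 and 9.52 at probe 28528, where wild type larvae read 7.37 to 7.93, 10.41 to 11.44 and 7.0 to 7.18. Larva 70 alone was above at Antp probes 13556, at 10.17, and 33182, at 7.09, against 7.52 to 8.27 and 6.67 to 7.05 in wild type larvae. Antp probe 19585 was below in both, at 6.85 and 7.03 in larvae 69 and 70, against 8.75 to 8.92 in wild type larvae. Larva 69 was also below at pb probe 24024, at 7.30 against 8.92 to 9.53, and at Dfd, at 8.48 against 9.39 to 10.10. These 2 larvae also stood apart from the other 22 samples over all probes.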

How the results depend on the processing

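Of 669 fold changes of single probes under another setting, 610 kept their direction and their side of the threshold, 14 lost and 3 gained a call, and 42 changed direction. The cause was not tested. The 1 Hox gene called in mz mutant against wild type embryos was 0 with all 24 samples (Dfd -0.76, adjusted p = 0.322), with dye as a covariate (-0.90, 0.0544), with the low series alone (-0.85, 0.0599), with the high series alone (-0.67, 0.0193) and with the stages fitted apart (-0.76, 0.0197). It was also 0 with the replicate block below, and it stayed at 1 under quantile normalisation, equal medians, dim probes left out, number series as a block, array weights, the mean of probes, adjustment over genes and a threshold of 0.05. At 0.05 the count in mz mutant against rescued embryos was 1 in place of 0, as it was without mz mutant embryo 1 and mutant larvae 65 and 66 together, an alternative chosen after seeing the data, which left the count against wild type at 1. This last setting turned pb in mutation by stage to -0.24 and Scr to -0.18 in mutant larvae against mz mutant embryos and -0.26 in mutant against wild type larvae, and Antp probe 19585 lost its call in mutant larvae against mz mutant embryos (-0.57, adjusted p = 0.0625). With 1 sample left out, these counts were 0 to 1 in both comparisons. In the other 7 comparisons the count stayed at 0 in every fit. The small number of arrays limits these intervals, and depth in reads does not apply.

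Antp probe 19585 lost its call in wild type larvae against wild type embryos with 24 samples (adjusted p = 0.389), the low series alone (0.0236) and the high series alone (0.0105), and in mutant larvae against mz mutant embryos with 24 samples (0.447) and the low series alone (-0.21, 0.459).

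With sample number as a replicate block, Dfd in mz mutant against wild type embryos was -0.66 (adjusted p = 0.307), and Antp probe 19585 was -0.58 (0.0653) in wild type larvae against embryos and -0.28 (0.396) in mutant larvae against mz mutant embryos. Samples of the same number correlated in their deviations at -0.225 to 0.54 over 19 pairs, with a median of 0.282, against 0.219 for other numbers of the same series, so that the number alone does not pair the samples. Under this block 12 differences changed direction, 0 of them called: Antp -0.17 in mutant against overexpressing larvae, 0.48 in mz mutant against rescued embryos, 0.27 in mz mutant against wild type embryos and -0.50 for mutation by stage; pb -0.054 in mutant against overexpressing larvae, 0.052 in mz mutant against wild type embryos and -0.15 for mutation by stage; Scr 0.0031 in mz mutant against rescued embryos, 0.27 in mz mutant against wild type embryos, -0.24 for mutation by stage, -0.11 in mutant larvae against mz mutant embryos and 0.12 in wild type larvae against embryos.

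With the low series alone direction changed for Antp in mutant against wild type larvae (0.13), mz mutant against rescued (0.91) and wild type embryos (0.54) and mutation by stage (-0.41), for Dfd in overexpressing against wild type larvae (-0.022), for pb in mz mutant against wild type embryos (0.032) and mutation by stage (-0.19), and for Scr in mz mutant against rescued (0.26) and wild type embryos (0.36), wild type larvae against embryos (0.20) and mutation by stage (-0.16). With the high series alone it changed for Antp in mutant larvae against mz mutant embryos (0.38) and rescued against wild type embryos (0.16), for Dfd in mutant against wild type larvae (0.16) and rescued against wild type embryos (0.055), and for pb in mutant against wild type larvae (0.015). With the mean of a gene's probes it changed for Antp in mutant larvae against mz mutant embryos (0.010), mutant against wild type larvae (0.35), mz mutant against wild type embryos (0.034) and rescued against wild type embryos (0.11), and for pb in mutant against overexpressing larvae (-0.030). With all 24 samples it changed for Antp in mutant against overexpressing larvae (-0.32) and overexpressing against wild type larvae (0.27) and for Dfd in overexpressing against wild type larvae (-0.13). With array weights it changed for Antp in mutant against wild type larvae (0.084) and for pb in mz mutant against wild type embryos (0.0042) and mutation by stage (-0.094).

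With 1 sample left out, direction changed for differences near 0 that were not called: Antp ranged from -0.24 to 0.10 in mutant against wild type larvae, from -0.42 to 0.19 in mz mutant against rescued embryos and from -0.48 to 0.12 in rescued against wild type embryos. The range for pb in mutant against wild type larvae was -0.21 to 0.061, for mutation by stage -0.032 to 0.32 and for rescued against wild type embryos -0.16 to 0.24. For Scr it was -0.31 to 0.45 in rescued against wild type embryos and -0.55 to 0.13 in wild type larvae against embryos.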
